A study of Rattus norvegicus with 4 samples.

Results

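Solute carriers are the genes named Slc and Slco, membrane proteins that move sugars, amino acids, ions, neurotransmitters, metabolites and drugs across membranes. They were chosen by name: every probe set, that is a set of short oligonucleotides for 1 transcript, whose only gene symbol in the platform annotation starts with Slc. That gave 188 of 8799 probe sets and 126 of 4736 named genes. They were measured in rat myometrium, the muscle layer of the uterus, on 4 Affymetrix rat oligonucleotide arrays. All rats were 60 days old and had lost their ovaries a week before treatment; their strain is not given in the sources used here. Treated animals were injected under the skin with estradiol benzoate, a long-acting form of estradiol, at 10 µg per kg of body weight. The control groups received vehicle. Tissue was taken 6 or 24 h later, which made 4 groups. Each group is 1 array of RNA pooled from 6 animals, so no group has replicate error, a difference compares 2 pools, and no difference within a time was tested. In bulk tissue fewer cells of a type and less RNA per cell cannot be told apart.

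Most solute carriers work as secondary transporters: they use gradients, above all the sodium gradient set by the sodium pump, or simply let a solute run down its own gradient. Families in the Slc25 series sit in the inner mitochondrial membrane, and Slco proteins carry organic anions such as prostaglandins. In the uterus such carriers feed the growth of the muscle that estrogen drives and help to set the ion balance and prostaglandin levels on which contraction depends.

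The label of the 6 h arrays needs care. Known estrogen targets of the rat uterus, Igf1, Pgr, S100g and Hsd11b2, were 2.74-fold to 7.79-fold higher with estradiol at 24 h. At 6 h they were 5.79-fold to 11.2-fold lower on the array labelled estradiol than on the array labelled control, which goes against the labels. Directions at 6 h are therefore those of the arrays as labelled. Both 24 h arrays were scanned on 1 day and both 6 h arrays on another, so the effects of time and of scan day cannot be told apart. The wash record of the 24 h control holds a communication error. The 3′ over 5′ signal ratio of Gapdh lay between 1.05 and 1.15. That of beta-actin lay between 1.235 and 1.386, highest on the 24 h control. All 7 smooth muscle markers on the array, Acta2 and Myh11 among them, were above the floor defined next on all 4 arrays, and 0 differed 2-fold at either time. Of 11 macrophage and leukocyte markers 2 were higher and 4 lower at 24 h and 1 lower at 6 h, and of 5 endothelium markers 1 was lower at each time.

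A signal counted as above the floor when it passed its array's 40th percentile, which lay between 89.5 and 108 signal units. Of the 126 solute carrier genes 92 were above the floor on at least 1 array, 68 on all 4, and 34 were at the floor on all 4, or 27.0% against 23.6% of all named genes. A gene is represented by the probe set with the highest mean signal. The rule for a call was a ratio of 2-fold or more in which the brighter signal passed its floor. Signals under the floor were set to it, so a fold against them is only a lower limit, given as "at least".

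At 24 h 5 of the 92 measured genes were higher with estradiol and 5 lower. Among all 3619 measured genes 8.68% were higher and 8.04% lower, so the solute carriers, at 5.43% each way, did not pass the rule more often than genes in general. At 6 h 4 were higher on the array labelled estradiol and 7 lower, 4.35% and 7.61%, against 6.47% and 5.08% of all measured genes. Their median log2 difference was -0.19 at 24 h and -0.08 at 6 h, beside -0.17 and -0.06 over all measured genes. Scaled to a common median, the arrays gave 8 higher against 5 lower solute carriers at 24 h, and the median over all genes moved up by 0.14. Against the other control array the counts also moved: 2 higher and 10 lower at 24 h, and 7 higher and 1 lower at 6 h.

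**Figure D1:**
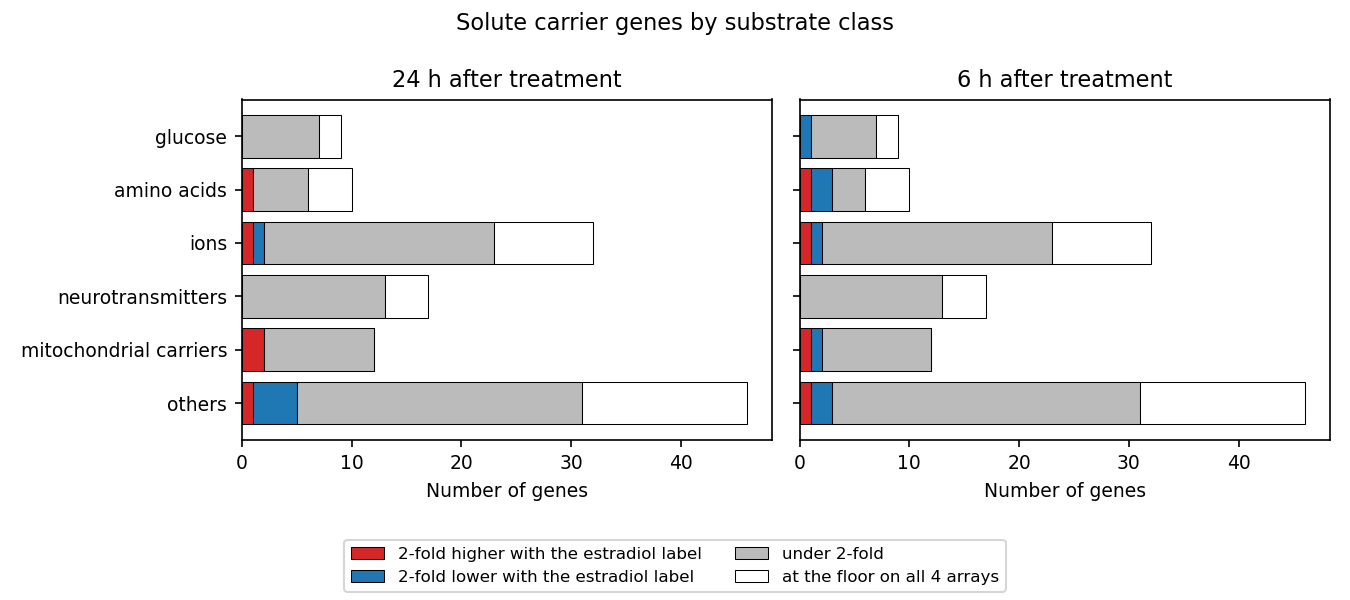
Number of solute carrier genes in each substrate class at 24 h (left) and 6 h (right), split into those at least 2-fold higher or lower with the estradiol label, those under 2-fold and those at the floor on all 4 arrays. No neurotransmitter carrier passed the rule at either time, and no mitochondrial carrier was at the floor on all 4 arrays.

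The genes that passed the rule at both times did so in opposite directions. Slco2a1, Slc7a1 and Slc25a5 were higher with estradiol at 24 h and lower on the array labelled estradiol at 6 h, 3 of 92 genes against 1.49% of all measured genes. Slc22a18 was lower at 24 h and higher at 6 h, a pattern of 1.88% of all measured genes. No solute carrier was higher at both times, against 0.58% of genes, or lower at both, against 0.166%. These counts rest on the 6 h labels. With the sign of the 6 h differences turned, Slco2a1, Slc7a1 and Slc25a5 would be the 3 genes higher at both times and Slc22a18 the 1 gene lower at both, and the background shares would change places in the same way. Over the 92 genes the differences at the 2 times, which share no array, had a Pearson r of -0.35 and a Spearman rho of -0.17. Over all 3619 genes r was -0.25 and rho -0.22, so the solute carriers were further from 0 by r and closer to it by rho. Turning the sign of the 6 h differences makes each of these positive. Those correlations run across genes, which share arrays and are not independent.

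**Figure D2:**
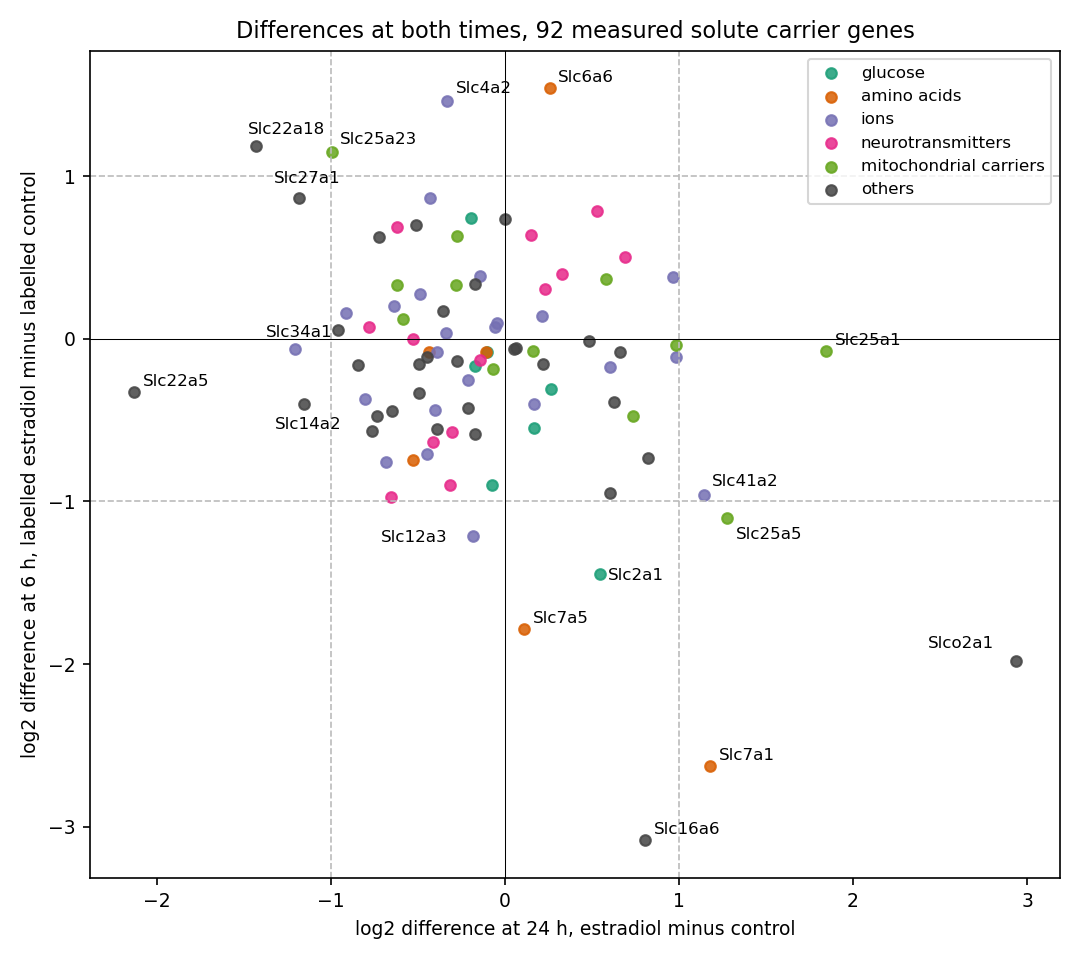
Log2 difference at 24 h (estradiol minus control, horizontal) against that at 6 h (labelled estradiol minus labelled control, vertical) for the 92 measured solute carrier genes, coloured by substrate class, with dashed lines at 2-fold. Slco2a1, Slc7a1 and Slc25a5 lie beyond both lines at the lower right and Slc22a18 at the upper left.

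The only test the design allows is a limma fit of treatment with time as a second term, over all 6157 probe sets above the floor on at least 1 array. After Benjamini-Hochberg adjustment limma called 0 probe sets at a threshold of 0.05, that is 0%, and 0 of 130 solute carrier probe sets. At an unadjusted p under 0.05 it counted 104 probe sets, 0 of them of solute carriers. With a floor at the 20th percentile that count for solute carriers was 5, with a pseudocount 1 and with no filter 10. This fit averages the 2 times, so a gene that differs in opposite directions by the labels gives a small term.

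Slco2a1, the prostaglandin transporter that takes up prostaglandins for breakdown, passed the rule at both times in both of its probe sets. At 24 h its signal was 1726 with estradiol and 226 in the control. The 6 h signals were 378 with the estradiol label and 1492 with the control label. The estradiol array at 24 h and the labelled control at 6 h were thus high and the other two low. The transporter was thus 7.65-fold higher at 24 h and 3.95-fold lower at 6 h. A second probe set of the gene read 291 against 144 at 24 h, a smaller log2 difference of 1.01. At 6 h it read 62.1, under the floor, against 288. Its log2 difference of -1.49 there is only a lower limit in size. When the 24 h estradiol array was set against the labelled 6 h control, the log2 difference was 0.21. Of 6 epithelial markers 5 were higher at 24 h and 3 lower at 6 h, beside 8.68% and 5.08% of all measured genes. Muc1 went the other way at 24 h, with a log2 difference of -0.55, and had -0.43 at 6 h. The summed signal of the 6 was 3605 with estradiol and 1157 with vehicle at 24 h, and 652 and 1773 at 6 h. The adhesion molecule Epcam was at the floor on both 6 h arrays. The part of epithelium in the result was not tested.

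Promoter sequences of Slco2a1 and of Slc7a1, Slc7a5 and Slc16a1, described further on, are shown here because these 4 genes were all lower on the array labelled estradiol at 6 h, for Slc16a1 at 2-fold in 1 of 2 probe sets only, and hold a motif match. They were chosen after their values and matches were seen. RefSeq windows of 250 bases before to 50 after each start site (GRCr8) matched 107 of the 126 genes, with 118 windows. They were searched on both strands for the estrogen response element GGTCANNNTGACC, the E-box CACGTG, which binds Myc among other factors, and the amino acid response element core TGATGNAA. The estrogen element was in 0 of the 118 windows and in 0.0269% of all 33469 windows. The E-box was in 12 windows, 10.2% against 6.42% of all, and the amino acid element in 3, 2.54% against 3.98%. Among the genes with an E-box only Slc7a5 passed the rule at either time in the probe set used for it. The other genes called lower at 6 h, Slc16a6, Slc2a1, Slc25a5 and Slc12a3, were not among the genes with a match. Slco2a1 (chr8:112467489-112467788, plus strand) held the amino acid element on its reverse strand from base 159, and Slc7a1 (chr12:11664238-11664537, plus strand) held it from base 221. Slc7a5 (chr19:66872363-66872662, minus strand) held the E-box from base 72 and Slc16a1 (chr2:194812410-194812709, plus strand) from base 35. No window held both. Capitals mark the matches, which describe letters and not binding.
Slco2a1: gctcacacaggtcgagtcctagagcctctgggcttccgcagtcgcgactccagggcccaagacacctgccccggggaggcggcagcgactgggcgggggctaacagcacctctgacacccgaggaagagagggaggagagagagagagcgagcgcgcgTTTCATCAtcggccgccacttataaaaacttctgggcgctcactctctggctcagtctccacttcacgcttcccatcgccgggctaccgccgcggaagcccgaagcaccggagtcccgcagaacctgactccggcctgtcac
Slc7a1: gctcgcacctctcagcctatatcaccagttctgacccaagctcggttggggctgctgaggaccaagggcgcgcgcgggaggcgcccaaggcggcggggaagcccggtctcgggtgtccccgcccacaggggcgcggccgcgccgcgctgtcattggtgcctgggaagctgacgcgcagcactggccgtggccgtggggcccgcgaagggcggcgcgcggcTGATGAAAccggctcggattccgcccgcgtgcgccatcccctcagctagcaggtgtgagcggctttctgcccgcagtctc
Slc7a5: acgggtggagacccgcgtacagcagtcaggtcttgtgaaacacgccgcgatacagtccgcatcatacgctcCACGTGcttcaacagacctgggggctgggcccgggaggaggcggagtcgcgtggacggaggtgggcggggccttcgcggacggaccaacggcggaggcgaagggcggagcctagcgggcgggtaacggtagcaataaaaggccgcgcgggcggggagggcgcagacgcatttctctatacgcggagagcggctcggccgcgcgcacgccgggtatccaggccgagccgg
Slc16a1: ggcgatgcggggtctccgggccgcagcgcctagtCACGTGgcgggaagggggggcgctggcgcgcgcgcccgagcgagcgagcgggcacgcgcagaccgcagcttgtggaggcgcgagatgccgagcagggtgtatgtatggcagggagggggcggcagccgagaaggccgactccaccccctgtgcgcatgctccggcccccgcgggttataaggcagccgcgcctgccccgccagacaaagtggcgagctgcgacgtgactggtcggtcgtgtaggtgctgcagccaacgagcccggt

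Glucose carriers numbered 9, of which 7 were measured and 2, Slc2a2 of liver and pancreas and Slc5a2 of kidney, were at the floor on all arrays. At 24 h 0 of 7 passed the rule, against 8.68% higher and 8.04% lower over all measured genes. At 6 h 1 was lower, 14.3% against 5.08%, and 0 were higher, against 6.47%. Slc2a1, the widespread glucose transporter GLUT1, read 1038 with estradiol and 711 with vehicle at 24 h, 1.46-fold and under the rule. On the 6 h arrays it read 656 with the estradiol label and 1788 with the control label, 2.72-fold lower. The labelled control at 6 h was the highest of the 4 arrays, and the other 3 lay closer together. Its second probe set fell under the floor on the array labelled estradiol at 6 h, at 46.7 against 416. Against the 24 h control the 6 h log2 difference of Slc2a1 was -0.12.

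The insulin-regulated Slc2a4, GLUT4, stayed under 2-fold in the probe set used for it, with 305 against 272 at 24 h, then 215 against 315 at 6 h. Its 2 probe sets pointed in different directions at 6 h, with log2 differences of -0.55 and 0.62. Slc37a4, which carries glucose 6-phosphate into the endoplasmic reticulum, read 359 against 411 and 505 against 302 in the same order. Slc2a3, GLUT3, had a log2 difference of -0.07 at 24 h and -0.90 at 6 h, and the intestinal sodium-glucose carrier Slc5a1 0.26 and -0.31. A second probe set of Slc5a1 pointed the other way at 24 h, with -0.68, and had -0.32 at 6 h. The facilitated glucose carriers Slc2a1, Slc2a3 and Slc2a4 were above the floor on all arrays in the probe sets used for them. In those probe sets all had lower signals on the array labelled estradiol at 6 h, but only Slc2a1 passed 2-fold.

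Amino acid carriers numbered 10 and 6 were measured. Slc6a15, Slc6a17, Slc6a18 and Slc7a3 were at the floor on all arrays. Of the 6, 1 was higher at 24 h, and 2 were lower and 1 higher at 6 h. In this small class that is 16.7%, 33.3% and 16.7%, against 8.68%, 5.08% and 6.47% of all measured genes. Slc7a1, which brings in arginine and lysine, read 228 with estradiol and 63.3, under the floor, in the control at 24 h, at least 2.27-fold. The 6 h signals were 138 with the estradiol label and 853 with the control label, 6.19-fold lower. The labelled control at 6 h stood far above the other 3. A second probe set read 258 against 151 and 114 against 624, and the last differed little, at 94.1 against 122 and 133 against 138. With the mean of the probe sets the 24 h log2 difference was 0.53 and under the rule, and against the 6 h control it was -1.90.

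Slc7a5, the carrier of leucine and other large amino acids, read 580 against 537 at 24 h, a log2 difference of 0.11. The 6 h signals were 357 with the estradiol label and 1231 with the control label, 3.45-fold lower. Slc3a2, the heavy chain that Slc7a5 needs to reach the surface, also had its highest signal on the labelled control at 6 h, 2591, and read 1546 on the array labelled estradiol, under 2-fold. At 24 h Slc3a2 read 1075 with estradiol and 1553 in the control. Its 2 probe sets lay close together, with log2 differences of -0.53 and -0.50 at 24 h and -0.75 and -0.86 at 6 h. Slc6a6, the taurine carrier, went the other way at 6 h: 597 with the estradiol label against 205, 2.91-fold higher, and 319 against 266 at 24 h. Slc3a1, the heavy chain of the cystine carrier, stayed between 276 and 374 on all arrays.

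**Figure D3:**
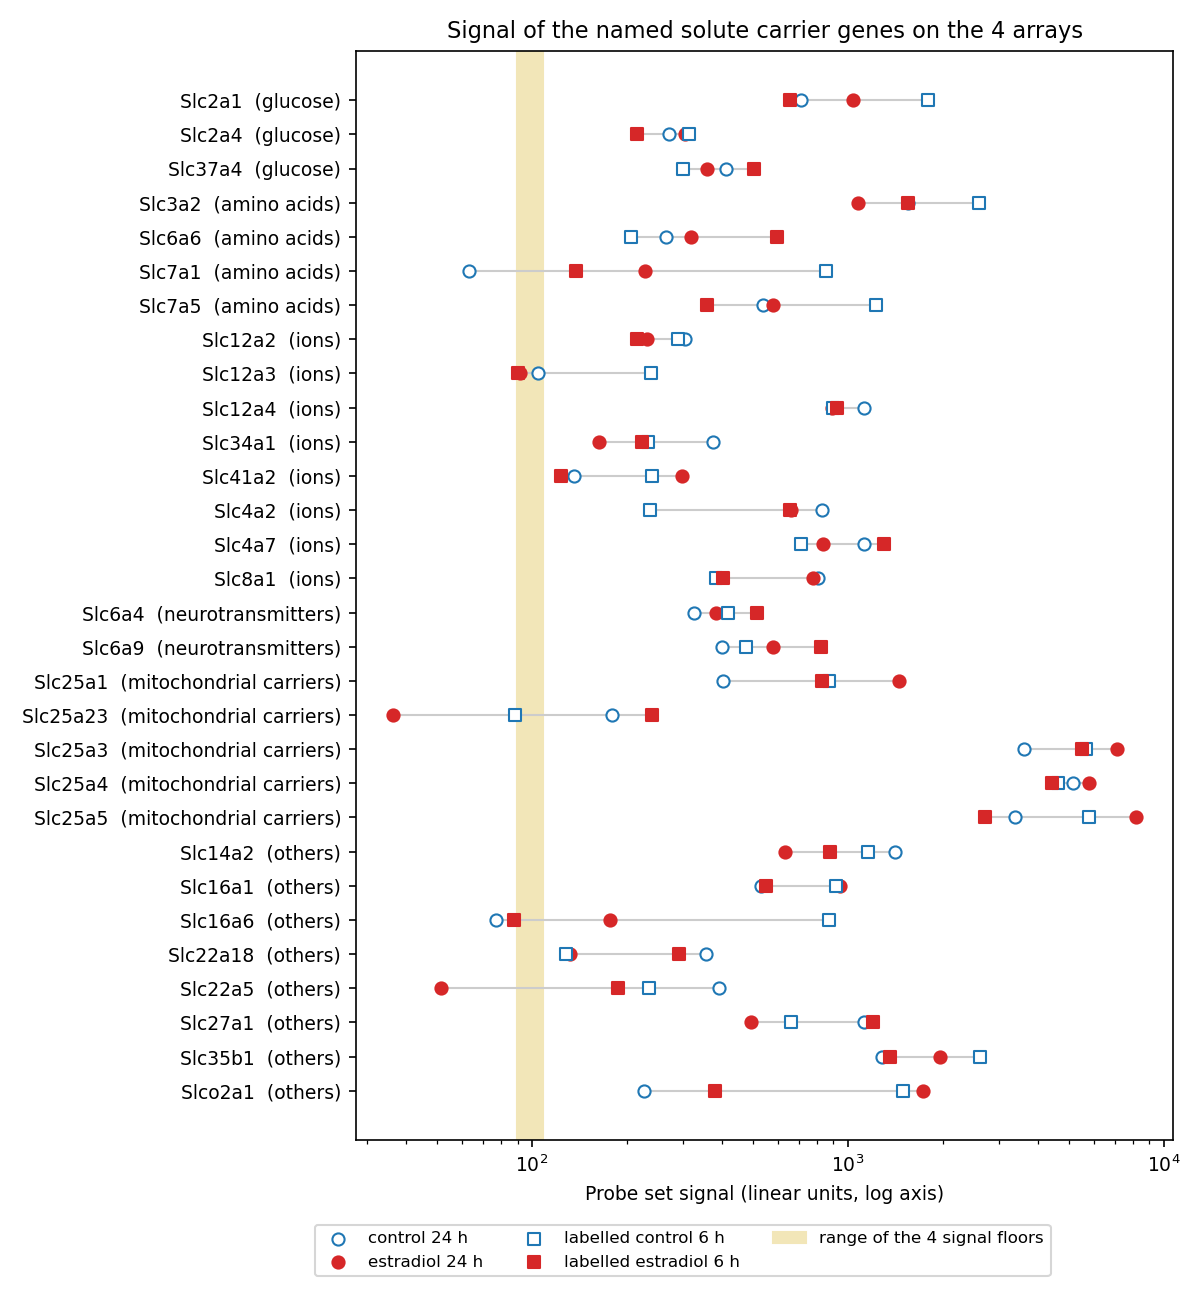
Probe set signal (log axis) of the named solute carrier genes on the control (blue, open) and estradiol (red, filled) arrays at 24 h (circles) and 6 h (squares), 1 array of a pool each, with the range of the 4 floors shaded from 89.5 to 108. Slc7a1, Slc7a5, Slc16a6 and Slc12a3 have their highest signal on the array labelled control at 6 h. Signals of different genes come from different probes and are not comparable in level.

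Ion carriers formed a class of 32 genes, and 23 were measured. The 9 at the floor on all arrays included the kidney and gut carriers Slc12a1, Slc9a2, Slc9a3, Slc9a4 and Slc13a1, the neuronal Slc12a5 and Slc24a2, and the iodide carrier Slc5a5 of the thyroid. At each time 1 of 23 was higher and 1 lower, 4.35% each way. Over all measured genes the shares were 8.68% and 8.04% at 24 h and 6.47% and 5.08% at 6 h. Slc41a2, a magnesium transporter, read 299 with estradiol and 135 with vehicle at 24 h, 2.21-fold higher, and 123 against 239 at 6 h, where its log2 difference of -0.96 missed the rule. It was high on the same pair of arrays as Slco2a1. With a floor at the 60th percentile its 24 h log2 difference was 0.26. Slc34a1, the phosphate carrier of the kidney, read 163 with estradiol and 375 in the control, 2.30-fold lower, in 1 of 5 probe sets. The other 3 that rose above the floor had log2 differences between -0.57 and -0.01, and the mean over all 5, 1 of them at the floor on all arrays, gave -0.46.

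At 6 h the anion exchanger Slc4a2, which swaps chloride for bicarbonate, was 2.76-fold higher with the estradiol label, at 654 against 237. The low signal was that of the labelled control at 6 h, since the 24 h arrays read 660 and 830. Its second probe set read 524 against 500, and the mean of both gave a log2 difference of 0.77, under the rule. Slc12a3, the thiazide-sensitive sodium chloride carrier of the kidney, was at the floor with 90.1 under the estradiol label at 6 h and read 238 on the labelled control, at least 2.32-fold lower. The 24 h arrays read 91.6 and 104, just above their floors, so the labelled control at 6 h was the only array well above its own. With the mean of its probe sets the log2 difference of Slc12a3 was -0.65.

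Of the carriers that move calcium, chloride and bicarbonate, Slc8a1, the sodium-calcium exchanger that expels calcium from muscle cells, read 774 with estradiol and 805 with vehicle at 24 h, and 403 against 383 at 6 h. Its log2 differences were -0.06 and 0.07, but the signal in the control was 2.10-fold higher at 24 h than at 6 h. The 4 probe sets of Slc8a1 above the floor differed at 6 h, from -0.68 to at least 1.06. They also differed for the 24 h minus the 6 h control, from -0.88, with the 24 h signal under the floor, to 1.24. The related exchanger Slc8a2 read 134 against 233 at 24 h, then 387 against 501 at 6 h, a 3.75-fold range over the arrays. Slc12a2, the sodium-potassium-chloride cotransporter, read 231 against 306 and 214 against 290, 1.32-fold and 1.36-fold lower, in 1 of 4 probe sets. Another that was above the floor on all arrays had a log2 difference of 0.02 at each time. The mean of its probe sets gave -0.11 and -0.14. Slc12a4, the potassium-chloride cotransporter that works against cell swelling, lay between 893 and 1127 on all arrays. The sodium-bicarbonate carrier Slc4a7 read 835 against 1127 at 24 h, then 1299 against 712 at 6 h, both under 2-fold.

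Slc4a4, another sodium-bicarbonate carrier, was the first solute carrier short of the higher call at 24 h, with 210 against 106 and a log2 difference of 0.99. The 6 h signals were 357 against 385, a log2 difference of -0.11, and the 24 h control was the lowest of the 4 arrays. Slc40a1, ferroportin, which exports iron, read 40.5, under the floor, against 169 at 24 h, at least 1.89-fold lower and so short of the rule by its bound. The anion exchanger of red cells, Slc4a1, read 339 and 302 at 24 h and 415 and 548 at 6 h. The summed blood cell markers read 14286 and 20996, then 9115 and 14578, in the same order. These markers were split at 24 h: log2 differences were -0.56 for Hbb, -0.61 for Hbb-b1, 0.30 for Alas2 and 0.09 for Hbe1, beside 0.17 for Slc4a1. At 6 h they ranged from -0.72 to -0.34, beside -0.40 for Slc4a1. The part of blood in Slc4a1 was not tested.

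Neurotransmitter carriers numbered 17, and 13 were measured. The glutamate carrier Slc1a6, the vesicular carriers Slc17a7 and Slc18a1 and the GABA carrier Slc6a13 were at the floor on all arrays. At 24 h and at 6 h 0 of 13 passed the rule. Log2 differences ran from -0.78 to at least 0.69 at 24 h. At 6 h they ran from -0.97, a lower limit in size, to 0.79. The 24 h limit is that of Slc1a1, whose control signal of 76.96 was under the floor. The 6 h limit is that of Slc6a7. Its signal was under the floor with the estradiol label at both times, 48.85 at 24 h and 68.66 at 6 h. The controls of Slc6a7 gave 140.7 and 201, so its differences may be larger than these limits. Of all measured genes 8.68% were higher and 8.04% lower at 24 h, and 6.47% and 5.08% at 6 h. Slc6a9, the glycine carrier GLYT1, read 578 with estradiol and 400 with vehicle at 24 h and 821 against 476 at 6 h. It was higher with the estradiol label at both times, 1.44-fold and 1.72-fold, short of the rule. The serotonin carrier Slc6a4 read 382 against 326 and 515 against 416, and its second probe set was above the floor only in the 24 h control.

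The noradrenaline carrier Slc6a2 stayed between 183 and 214 on all arrays, a ratio of 1.17 between the highest and the lowest, while its second probe set was at the floor on all arrays. Slc18a3, the vesicular acetylcholine carrier, read 223 against 343 at 24 h, then 429 against 267 at 6 h, but its second probe set pointed the other way at 6 h, with a log2 difference of -0.67 against 0.69 for the first. Of 11 nerve markers on the array 8 were measured, 0 differed 2-fold at 24 h, and 1, Gap43, was lower at 6 h, and their summed signal lay between 932 and 1684. Their part in the signals of these carriers was not tested.

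Mitochondrial carriers were the class with 12 of 12 genes measured, 11 of them above the floor on all arrays. Of the 12, 2 were higher at 24 h and 0 lower, and 1 was higher and 1 lower at 6 h. That is 16.7% and 0% against 8.68% and 8.04% of all measured genes at 24 h. At 6 h it is 8.33% each way against 6.47% higher and 5.08% lower. With so few genes these counts are not read as a trait of the class. Slc25a5, an exchanger of ADP for ATP linked to growing cells, read 8182 with estradiol and 3374 with vehicle at 24 h, 2.42-fold higher. At 6 h it read 2707 with the estradiol label and 5805 with the control label, 2.14-fold lower. Its sister Slc25a4, the form typical of muscle, stayed between 4410 and 5788 on all 4 arrays. The pair thus differed in behaviour by a log2 difference of 1.28 against 0.16 at 24 h and of -1.10 against -0.07 at 6 h, a comparison with no test.

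Slc25a1, which sends citrate out of mitochondria for fatty acid and sterol synthesis, read 1446 with estradiol and 402 with vehicle at 24 h, 3.60-fold higher. On the 6 h arrays it read 826 and 869, with no 2-fold difference. Its signal in the 24 h control was under each other array's by 2-fold or more, which held for 1 of 92 solute carriers, this one, and for 3.56% of all measured genes. Against the 6 h control its 24 h log2 difference was 0.74. Slc25a3, the phosphate carrier that feeds ATP synthesis, read 7134 against 3606 at 24 h, 1.98-fold, and 5525 against 5678 at 6 h. It passed 2-fold at 24 h when the arrays were scaled to a common median, with a log2 difference of 1.12.

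Slc25a23, a calcium-sensitive carrier of ATP and phosphate, read 36.3 with estradiol, under the floor, and 179 in the control at 24 h, at least 1.99-fold lower and just short of the rule, which it passed with a floor at the 20th percentile (-2.30) and with a pseudocount (-1.03). At 6 h it read 240 with the estradiol label and 88.1, under the floor, with the control label, at least 2.22-fold higher. Its high arrays were those on which Slc25a5 was low. Slc25a17, which is peroxisomal although its family is mitochondrial, read 948 and 634 at 24 h and 1677 and 1298 at 6 h, so both 6 h arrays were higher than both 24 h arrays. The carnitine-acylcarnitine carrier Slc25a20 lay between 330 and 412 on all arrays.

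The remaining 46 genes carry monocarboxylates, organic ions, nucleosides, vitamins, fatty acids, urea and nucleotide sugars, and include Slco. Of these 31 were measured and 15 were at the floor, among them the bile acid carriers Slc10a1 and Slc10a2, the peptide carrier Slc15a1 and the liver carrier Slco1a1. At 24 h 1 of 31, Slco2a1, was higher and 4 were lower, 3.23% and 12.9% against 8.68% and 8.04% of all measured genes. At 6 h 1 was higher and 2 lower, 3.23% and 6.45% against 6.47% and 5.08%. Slc22a5, which takes up carnitine, read 51.3, under the floor, with estradiol and 391 with vehicle at 24 h, at least 4.37-fold lower. The 6 h arrays lay between, at 187 and 235, so the estradiol array at 24 h was the lowest. Its log2 difference dropped under the rule, to -0.78, once the floor was raised to the 60th percentile. Slc27a1, a fatty acid transport protein, read 493 against 1122 at 24 h, 2.27-fold lower, and 1203 against 659 at 6 h, 1.82-fold higher. Of 5 measured adipocyte markers 2 were lower at 24 h, Lpl and Cfd at 6.08-fold and at least 6.29-fold, and Lpl was 2.16-fold higher at 6 h. The others did not differ by the rule at 24 h. Lep and Lipe had log2 differences of -0.34 and -0.12, and Fabp4 was at the floor on both 24 h arrays. The summed signal of the 5 was 2792 with estradiol and 6193 with vehicle at 24 h, and 4959 and 5505 at 6 h. Lpl alone read 456 with estradiol and 2775 with vehicle at 24 h. The part of fat tissue in these carriers was not tested.

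Slc22a18, an organic cation carrier of poorly known substrate, read 132 with estradiol and 355 with vehicle at 24 h, 2.70-fold lower. At 6 h it read 291 against 128, 2.28-fold higher. Both high signals lay on the 24 h control and on the array labelled estradiol at 6 h, the arrays on which Slco2a1 was low. Its signals were not far above the floor, and with a floor at the 60th percentile its log2 differences were -0.64 and 0.18. Slc14a2, a urea carrier, read 633 against 1408 at 24 h, 2.22-fold lower, and 877 against 1157 at 6 h. A second probe set of Slc14a2 was at the floor on all arrays, and the mean of both gave a log2 difference of -0.66 at 24 h.

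Monocarboxylate carriers move lactate, pyruvate and related acids. Slc16a6, of this family, passed the rule at 6 h with 87.7, below the floor, under the estradiol label and 869 on the labelled control, at least 8.48-fold lower. At 24 h it read 177 with estradiol and 77.02, under the floor, in the control, a log2 difference of at least 0.81 and short of the rule. Against the 24 h control the 6 h difference was 0.02, since both arrays were then at the floor. Slc16a1, the lactate carrier MCT1, read 942 against 532 at 24 h, then 551 against 915 at 6 h, 1.77-fold higher and 1.66-fold lower. Its second probe set read 414 against 203 and 232 against 539, which passed the rule both ways, at log2 differences of 1.03 and -1.22. Slc35b1, a nucleotide carrier of the endoplasmic reticulum, shared that order in both probe sets, with log2 differences of 0.60 and 0.95 at 24 h and -0.95 and -0.90 at 6 h.

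**Figure D4:**
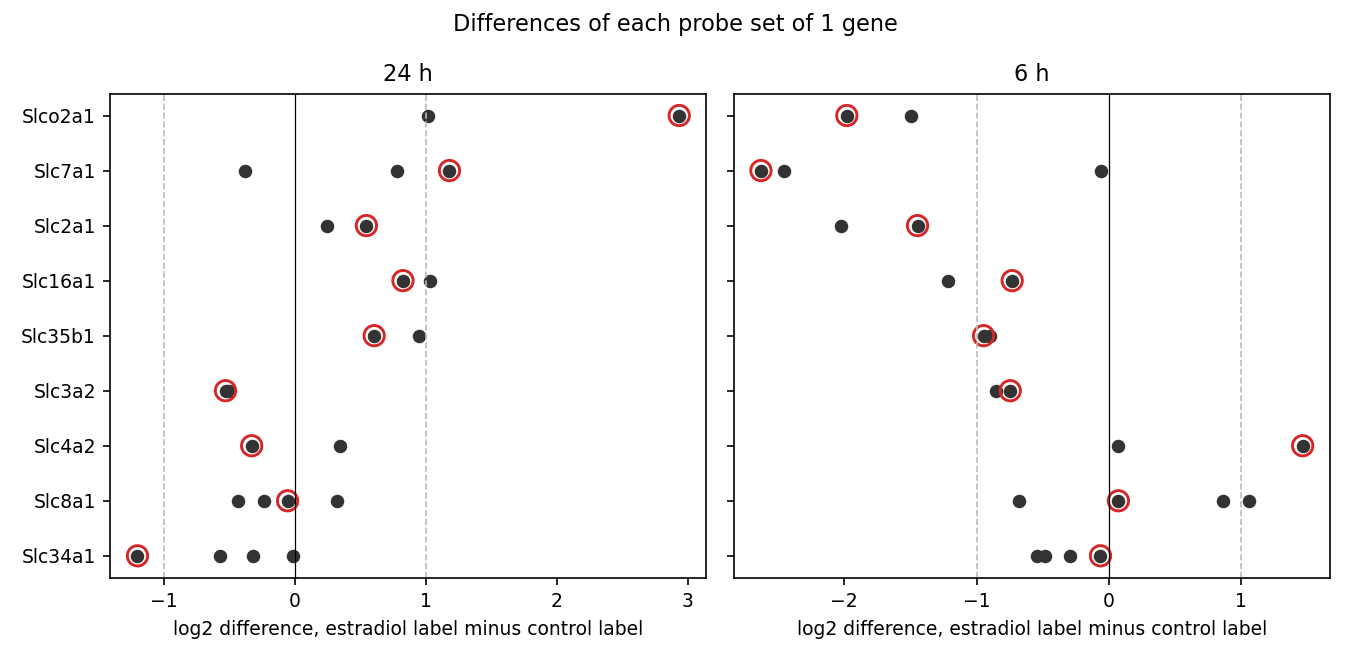
Log2 difference, estradiol label minus control label, of each probe set above the floor on at least 1 array (points) for 9 solute carrier genes at 24 h (left) and 6 h (right). Red rings mark the probe set used for the gene, and dashed lines mark 2-fold. The probe sets of Slco2a1, Slc2a1, Slc16a1 and Slc35b1 lie on 1 side of 0 at each time, while those of Slc4a2, Slc7a1 and Slc8a1 do not at 24 h.

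Among the carriers short of the rule, several came close at 24 h. Slc6a8, the creatine carrier, read 566 with estradiol and 1098 in the control, 1.94-fold lower, and 832 against 802 at 6 h. Slc41a3, a relative of the magnesium carrier Slc41a2, read 306 against 157, 1.95-fold higher, and 338 against 260 at 6 h. Unlike Slc41a2 it had its lowest signal in the 24 h control and its highest on the array labelled estradiol at 6 h. The organic anion carrier Slco1a4 read 331 against 546 at 24 h, then 827 against 535 at 6 h. The nucleoside carrier Slc29a1 had the same order, with 344 against 491 and 509 against 312, while its relative Slc29a2 was lower with the estradiol label at both times, with 256 against 434 and 459 against 680. None of these 5 passed 2-fold.

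Many solute carriers varied little. Of the 68 above the floor on all arrays, 18 had a highest signal within 1.5-fold of their lowest, 26.5% against 24.4% of the 2652 such genes in all, and 46 lay within 2-fold, 67.6% against 62.7%. The steadiest was Slc5a3, the inositol carrier that balances osmotic stress, with 247, 258, 278 and 268 in the 24 h control, 24 h estradiol, 6 h control and 6 h estradiol arrays. The urea carrier Slc14a1 followed with signals between 313 and 355, then the sulfate carrier Slc26a2 between 116 and 133. Between the 2 controls, which differ in both time and scan day, 13 solute carriers were lower at 24 h and 3 higher, 14.1% and 3.26% against 9.62% and 7.63% of all measured genes. Slc16a6 and Slc7a1 led the lower ones, at least 8.62-fold and at least 8.46-fold, and Slco2a1 was 6.61-fold lower. Between the arrays labelled estradiol 7 were lower and 3 higher at 24 h, against 9.45% and 5.44%.

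Array by array, 4 solute carriers, Slc7a1, Slc7a5, Slc16a6 and Slc12a3, were at least 2-fold higher on the labelled control at 6 h than on each other array, 4.35% against 1.44% of all measured genes. On the 24 h estradiol array 0 were, against 1.57%. Over the 92 genes the SD of the log2 differences was lowest, 0.54, for the 24 h control against the array labelled estradiol at 6 h. The largest SD, 0.81, was that between the 2 controls. The same pairs were lowest and highest over all measured genes, at 0.65 and 0.82. These SDs describe pairs of single arrays and are not replicate errors.

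Partners and regulators of transport were followed in a list of 28 gene symbols, some of them older names of listed genes. Of these 17 were on the array and 16 measured. At 24 h 1 was higher and 0 lower, and at 6 h 2 were higher and 2 lower. Beside these, 8.68% and 8.04% of all measured genes were higher and lower at 24 h, and 6.47% and 5.08% at 6 h. With 16 genes such counts are not read as a trait of the list. Sgk1, a kinase that raises the activity of many carriers, read 496 with estradiol and 224 with vehicle at 24 h and 250 against 797 at 6 h, 2.21-fold higher and 3.18-fold lower. Atp1b3, a sodium pump subunit, was 2.27-fold lower with the estradiol label at 6 h, and its relative Atp1b1 5.86-fold higher. Stk39, a kinase of the chloride cotransporters Slc12a2 and Slc12a3, was at least 5.96-fold higher there. On the labelled control at 6 h Stk39 was under the floor at 82.2, while the other 3 arrays read between 645 and 1058. Bsg, the chaperone of the monocarboxylate carriers, read 2396 against 4372 at 24 h, 1.82-fold lower, and 4341 against 4295 at 6 h.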

How the data were processed

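Total RNA from pooled rat myometrium was hybridised to 4 arrays, 1 per group. The values are the probe set intensities deposited by the authors, made with MAS5 per the submitters' processing notes. The MAS5 version is not given in the sources used. Each deposited column had a 2% trimmed mean of 500, so it was used at that scale. The instrument records, which hold other values, gave chip lot and scan day per the file headers. Of 8799 probe sets 59 controls were left out, and 7018 had 1 gene symbol, 308 several and 1473 none. RefSeq changed 0 of the solute carrier symbols, and 2 probe sets with several symbols that hold a solute carrier were left out. Intensities were raised to a floor at the 40th percentile of each array and turned to log2. Genes passed at 2-fold with the brighter array above its floor. The only test was limma 3.58.1 in R 4.3.3 (lmFit and eBayes, treatment and time, 1 residual degree of freedom, Benjamini-Hochberg adjustment over all probe sets). The fold rule and limma were tested on simulated data. The number of arrays limits the precision.

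Substrate classes followed gene family, so that Slc6a20a and Slc6a8 stand among the others and the peroxisomal Slc25a17 among mitochondrial carriers. Named genes are all that passed the rule at either time, 2 per class with the highest mean signal and some fixed by name, to which other members were added after their values were seen. The members, classes and lists were chosen with earlier results of these data known. As alternatives, arrays were brought to a common median or to common quantiles. The floor was set at the 20th or the 60th percentile or replaced by a pseudocount of 100. Probe sets were averaged per gene, or those ending in _x_at or _s_at dropped. limma was also run without a filter on low signals.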

Additional observations from a re-analysis of the deposited data

Results flagged for a closer look

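Slco2a1, Slc7a1, Slc25a5 and Slc22a18 passed 2-fold in opposite directions at 24 h and at 6 h as the arrays are labelled. The gap, the log2 difference with the estradiol label at 24 h minus that at 6 h, was 4.92 for Slco2a1, at least 3.81 for Slc7a1, 2.38 for Slc25a5 and -2.62 for Slc22a18. The value for Slc7a1 is a lower limit, since its 24 h control was under the floor. Its 24 h log2 difference was under the rule with the mean of the probe sets (0.53) and without those ending in _x_at or _s_at (0.78). There was 1 array per group, and the gap itself was not tested. The labels of the 6 h arrays go against 4 known estrogen targets, and the size of each gap depends on those labels. With the sign of the 6 h difference turned the gaps were 0.96, at least -1.45, 0.18 and -0.25 in the same order.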

How the results depend on the processing

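The labels hold no replicate numbers, so arrays were paired by time alone, as in the limma fit. With scaling to a common median, 8 solute carriers were higher at 24 h and the 24 h median was -0.05, as it was with quantile normalization (-0.05). That scaling split all calls at 24 h into 388 higher and 205 lower, against 314 and 291, and quantile normalization split them into 339 and 219. With a floor at the 20th percentile 12 were higher and 14 lower at 24 h and 13 lower at 6 h. With a floor at the 60th percentile 3 were higher and 2 lower at 24 h and 2 higher at 6 h, and Slc7a1 at 24 h and Slc12a3 at 6 h changed sign to -0.13 and 0.04, which are the log2 ratios of the raised floors. With a pseudocount 2 were higher at 6 h, and with the mean of the probe sets 3 were lower at 24 h. limma called 0 probe sets under all alternatives run for it.

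Setting each estradiol array against the other time's control was added after seeing the data. Against the 6 h control the 24 h estradiol array gave 2 higher and 10 lower at 24 h, with Slc22a18 at 0.04 and Slc7a1 at -1.90. Against the 24 h control the array labelled estradiol at 6 h gave 7 higher and 1 lower at 6 h and a median of 0.02. There Slc16a6 was at 0.02, Slc22a18 at -0.29, Slc4a2 at -0.34, Slc7a1 at 0.45 and Slco2a1 at 0.75. The cause was not tested. With the sign of the 6 h difference turned, also added after seeing the data, the gap of Slc7a1 between the times was at least -1.45 in place of at least 3.81. Of 468 values of named genes under the other alternatives, 414 stayed on their side of the 2-fold rule. Of those 414, 389 also kept their sign and 25 did not. Signals near the floor limit Slc22a18, Slc12a3, Slc25a23, Slc41a2 and Slc34a1, which lost a call with the pseudocount. They also limit Slc22a5 and Slc7a1, which lost their 24 h calls with the floor at the 60th percentile.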
